A study of Homo sapiens with 6 samples.

Results

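The alpha satellite family was taken as every sequence in the deposited tables whose name starts with ALR, which gave 7 of 1047 sequences, namely ALR_, ALR, ALR1, ALRb, ALR2, ALRa and ALRa_. All 7 had at least 10 estimated counts in at least 1 library and were therefore among the 699 sequences tested. The RNA came from feeder-free cultures of H1 (passages 40 to 60), an established line of human embryonic stem cells. The cells of all 6 libraries carried a hairpin RNA, switched on by doxycycline (dox), against EXOSC3, a core subunit of the RNA exosome. The groups were EXOSC3r cells with dox (clones 1 and 2), EXOSC3r cells without dox (the same 2 clones), PB cells with dox (1 library) and PB cells without dox (1 library), where EXOSC3r is an EXOSC3 transgene made so that the hairpin cannot target it and PB is the empty vector. The length of the dox treatment was not given in the sources used here, and EXOSC3 RNA and a line without the hairpin were not analysed here, so neither the depletion nor an effect of dox itself was checked. PB is represented by 1 line. The spread in every test comes from EXOSC3r clones or from the 3 lines, and edgeR also draws on that of all other sequences.

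Alpha satellite DNA is the main repeat of human centromeres. Monomers of about the same length stand head to tail in long arrays, on which the centromeric histone CENP-A is laid down and whose B boxes bind CENP-B. The arrays are transcribed at low level, mostly by RNA polymerase II, and the RNA stays near the centromere it came from. The RNA exosome is a 3′ to 5′ ribonuclease complex of nucleus and cytoplasm, and in fission yeast it takes part in silencing pericentromeric repeats. The 7 names stand for consensus variants of 1 monomer, between 171 and 179 bases long in the files, and the files assign no separate role to any of them. A consensus stands for many copies on many chromosomes and has no single genome position, so no coordinates are given.

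Totals of estimated counts lay between 3745262 and 5260196 per library and cover only reads given to the 1047 sequences. The family took 3018, 3850 and 7761 of them in clone 1, clone 2 and PB cells with dox, against 1892, 2289 and 3953 without dox. HERVH is a retroviral repeat whose RNA marks human pluripotent stem cells. With dox it was at 20520, 21050 and 35680 CPM in clone 1, clone 2 and PB cells. Without dox it was at 27570, 28170 and 28390 CPM, where CPM is the estimated count normalised to the TMM-scaled library size. HERVH was lower in EXOSC3r than in PB cells with dox (log2 difference -0.78, edgeR, adjusted p = 0.035). In that comparison its LTR7 sequences did not pass (LTR7A 0.006, LTR7B 0.21, LTR7C -0.02 and LTR7Y -0.29). Over the 3 lines, with the line as a block, HERVH did not pass (-0.17, edgeR, adjusted p = 0.71). Its log2 change with dox was -0.42 in EXOSC3r cells and 0.33 in PB cells. The LTR7 sequences were also tested over the 3 lines with the line as a block. LTR7A (-0.37, adjusted p = 0.023) and LTR7B (-0.38, adjusted p = 0.0014) fell with dox (edgeR), while LTR7C (-0.14) and LTR7Y (-0.28) did not pass. Alu, the most abundant sequence, took 32.99% to 52.52% of counts. Its fold in CPM with dox was 1.36 in clone 1, 0.89 in clone 2 and 0.83 in PB cells, with no common direction. Over the 3 lines its log2 change was 0.0007 and did not pass. Shares of the total and TMM-scaled values differ in the values given here, and the part of Alu in this was not tested.

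The sum of the 7 was higher with dox in each line. It was at 771 CPM with dox against 469 without dox in EXOSC3r clone 1, at 938 against 572 CPM in clone 2, and at 1401 against 771 CPM in PB cells. Every library with dox thus stood above its own line without dox, and PB cells without dox were at the level of clone 1 with dox. The folds were 1.65 (95% counting interval 1.55 to 1.74) in clone 1, 1.64 (1.56 to 1.73) in clone 2 and 1.82 (1.75 to 1.89) in PB cells, where the intervals cover the counting of reads only. With the line as a block, the sum rose with dox over the 3 lines by 0.77 ± 0.05 on the log2 scale (SE, 95% interval 0.66 to 0.87, edgeR quasi-likelihood test, adjusted p = 2.602e-05 over all sequences). In bulk RNA, more RNA per cell and more cells making it cannot be told apart.

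**Figure D1:**
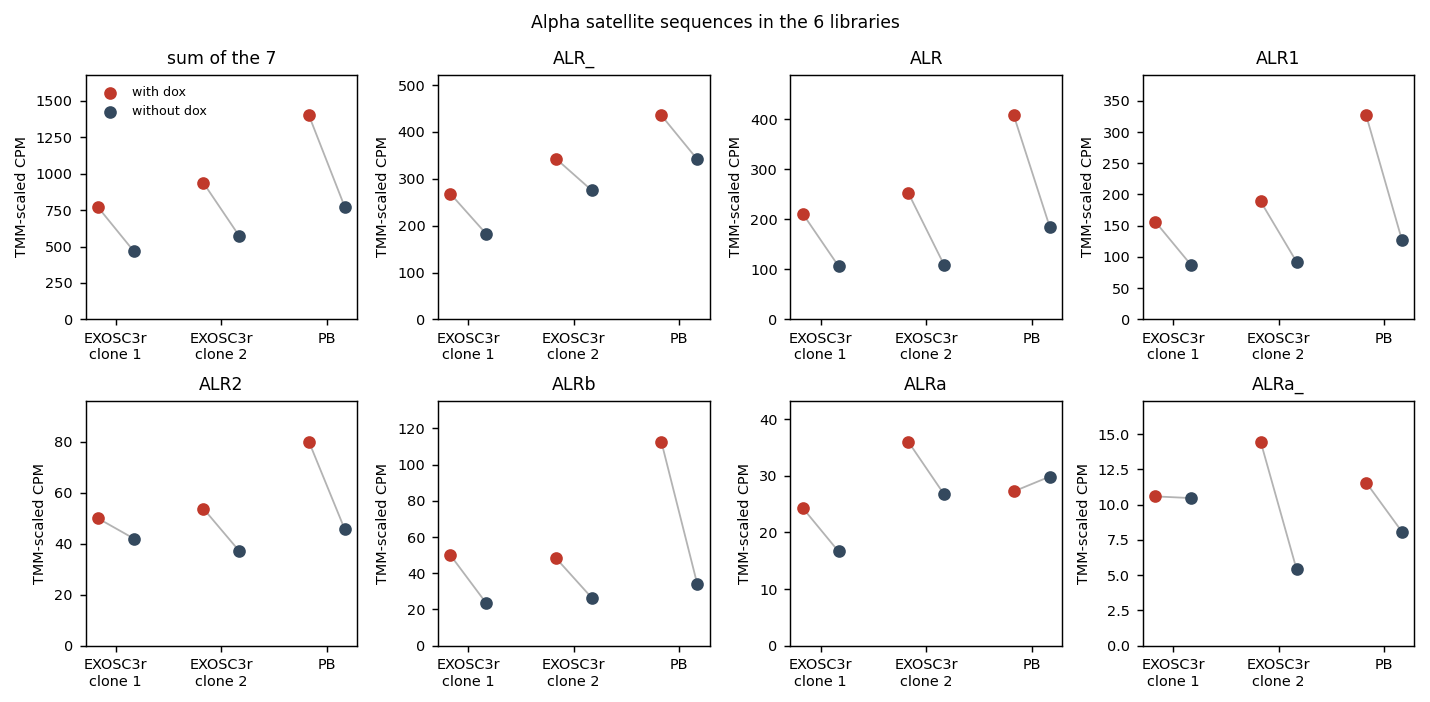
TMM-scaled CPM (y axis, from 0, a separate scale per panel) of the sum and of each alpha satellite sequence in the 6 libraries, by line on the x axis; red points are libraries with dox, dark points libraries without dox, and a grey line joins the 2 libraries of a line. The sum, ALR_, ALR, ALR1, ALR2 and ALRb are visibly higher with dox in all 3 lines, whereas ALRa is lower with dox in PB cells (27.2 against 29.8 CPM) and ALRa_ is level in clone 1.

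The dox response of the sum did not depend on the denominator for its direction, but its spread between lines did. As a share of all assigned counts the sum was 0.0574% with dox against 0.0410% without dox in clone 1, 0.103% against 0.0581% in clone 2, and 0.170% against 0.0880% in PB cells. Per 1000 counts of ACTB and GAPDH, a cytoskeletal actin and a glycolytic enzyme used as reference transcripts, it was 3.55 with dox against 2.41 without dox in clone 1, 7.29 against 4.05 in clone 2, and 13.45 against 6.57 in PB cells. The mean log2 change over the 3 lines was 0.76 ± 0.08 (SD, n = 3) in CPM, 0.75 ± 0.24 as a share of counts and 0.81 ± 0.24 relative to ACTB and GAPDH. An exact sign-flip permutation test over 3 lines gave p = 0.25 (two-sided) on each of these scales, which is the smallest p that 3 lines allow.

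**Figure D2:**
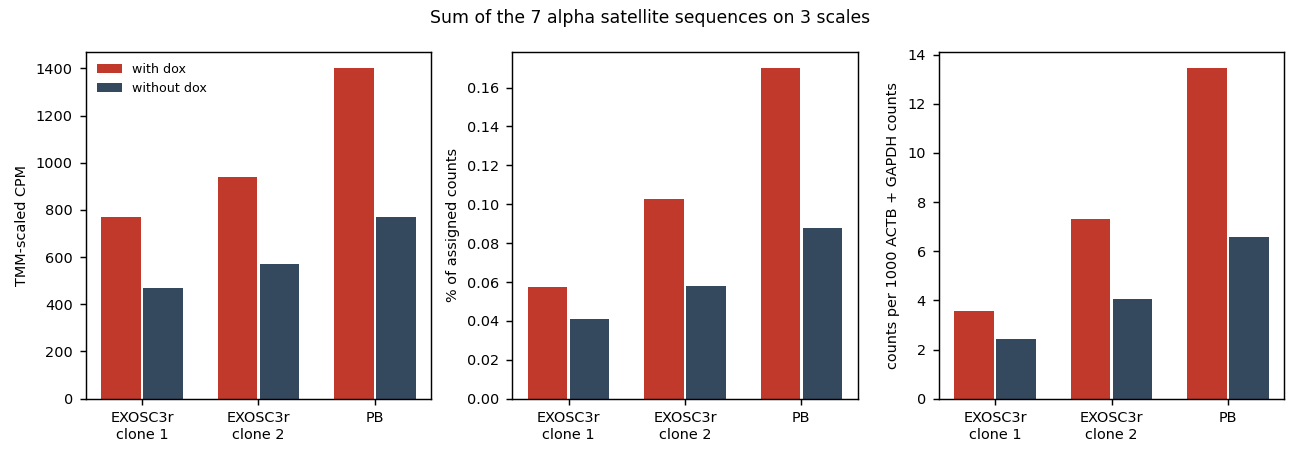
The sum of the 7 alpha satellite sequences as TMM-scaled CPM, as a percentage of assigned counts and per 1000 ACTB and GAPDH counts (y axes, from 0), by line; red bars are with dox and dark bars without dox, 1 library per bar. In each panel the red bar is the taller of its pair, and PB cells have the tallest red and the tallest dark bar, with 1401 against 771 CPM.

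Over the 3 lines, 4 of the 7 members rose with dox and none fell (edgeR, line as a block), against 6 of 699 sequences that rose, a share of 0.858%. In either direction 12 sequences passed, or 1.72%. The 4 members were ALR (log2 change 1.12 ± 0.06, SE, adjusted p = 5.134e-06), ALR1 (1.10 ± 0.09, adjusted p = 0.0001847), ALRb (1.26 ± 0.16, adjusted p = 0.0032) and ALR_ (0.40 ± 0.05, adjusted p = 0.0033). The median change of the 7 was 0.61, against 0.0046 over the 699 sequences. The other 2 that rose were HUERS-P1, an endogenous retrovirus (0.41 ± 0.05), and HSMAR1, a mariner DNA transposon (0.27 ± 0.05). Without the PB line 2 members passed, ALR (1.10) and ALR1 (0.94), while ALRb (0.98, adjusted p = 0.086) and ALR_ (0.43, adjusted p = 0.096) did not. Across all alternatives to the 3-line fit, between 0 and 28 sequences were called. A fit that ignores the pairing by line called none of the 699 sequences (0 by edgeR without the block, 12 with it). The comparison uses the same libraries as those within EXOSC3r and PB cells and is no independent repeat of them.

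**Figure D3:**
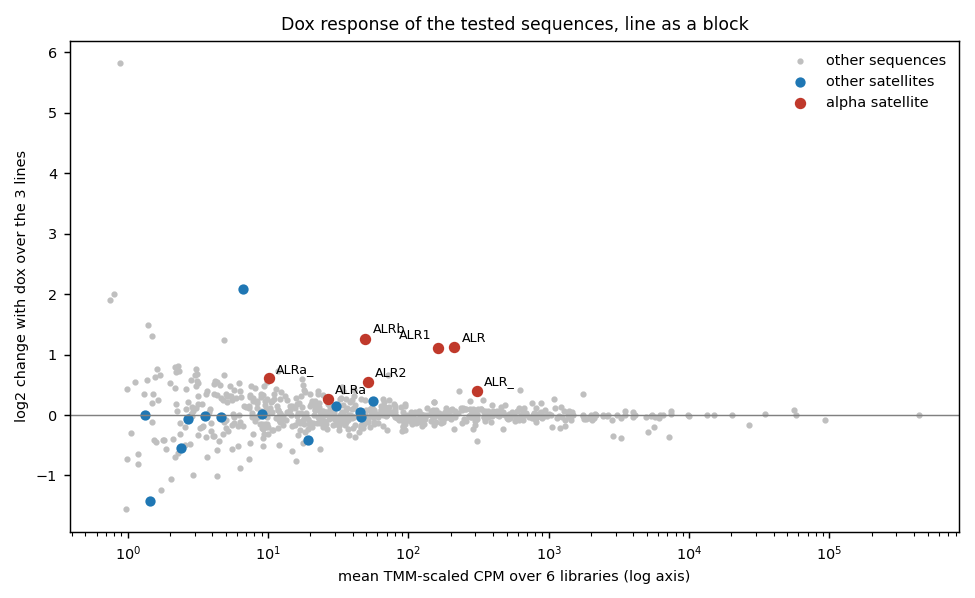
Log2 change with dox over the 3 lines (y axis, edgeR with the line as a block) against the mean TMM-scaled CPM over the 6 libraries (x axis, log scale) for the 699 tested sequences; alpha satellite sequences are red, other satellites blue and all others grey. ALR, ALR1 and ALRb lie at or above 1.10, ALRa lies at 0.26, and the few sequences with larger changes have means of only a few CPM.

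ALR had similar folds with dox in all 3 lines. It was at 211 CPM with dox against 106 without dox in clone 1, at 253 against 109 CPM in clone 2, and at 408 against 186 CPM in PB cells. The lowest library with dox lay above the highest without dox. The folds were 1.99 (counting interval 1.77 to 2.24), 2.33 (2.08 to 2.61) and 2.20 (2.04 to 2.37) in clone 1, clone 2 and PB cells. The counts behind them ran from 429 to 2259.

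ALR1 followed ALR. It was at 157 CPM with dox against 87.2 without dox in clone 1, at 189 against 92.3 CPM in clone 2, and at 327 against 126 CPM in PB cells. Here too all libraries with dox stood above all without. The same was seen for ALR2, ALRb and, narrowly, ALRa_ (lowest with dox 10.58, highest without 10.46 CPM). How many of all tested sequences separate in this way was not counted. The fold was 1.80 (1.57 to 2.05) in clone 1, 2.05 (1.81 to 2.32) in clone 2 and 2.58 (2.36 to 2.83) in PB cells, so that the counting interval of PB cells lay above those of both clones.

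ALRb was less abundant and had the largest fold of the 7 in PB cells. It was at 50.1 CPM with dox against 23.5 without dox in clone 1, at 48.5 against 26.5 CPM in clone 2, and at 113 against 34.2 CPM in PB cells. Without dox the clones lay close together and PB cells stood higher. With dox PB cells stood further apart from both clones. The folds were 2.13 (1.66 to 2.75), 1.83 (1.44 to 2.34) and 3.30 (2.79 to 3.93) in clone 1, clone 2 and PB cells.

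ALR_ had the highest level of the family in every library and a smaller response. It was at 268 CPM with dox against 183 without dox in clone 1, at 343 against 276 CPM in clone 2, and at 435 against 342 CPM in PB cells. Libraries with and without dox overlapped, since clone 1 with dox lay below clone 2 and PB cells without dox. The folds were 1.47 (1.34 to 1.62), 1.25 (1.150 to 1.35) and 1.27 (1.20 to 1.36) in clone 1, clone 2 and PB cells. Relative to total counts, to ACTB and GAPDH or in TPM its change over the 3 lines was between 0.40 and 0.46 but did not pass.

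The other 3 members shared reads. The estimated counts of ALR_, ALR, ALR1 and ALRb were whole numbers in all 6 libraries (within 1e-06), whereas those of ALR2, ALRa and ALRa_ were fractions in all 6 and whole only as their sum (within 1e-05). Reads were therefore divided among these 3 and their single values depend on that division. Their sum was at 84.9 CPM with dox against 69.1 without dox in clone 1, at 104 against 69.3 CPM in clone 2, and at 119 against 83.5 CPM in PB cells. It rose with dox by 0.47 ± 0.08 on the log2 scale over the 3 lines (edgeR, adjusted p = 0.021), a sum formed after the values were seen, and did not pass without the PB line (0.44, adjusted p = 0.42) or with DESeq2 (0.46, adjusted p = 0.071). It was also lost with ACTB and GAPDH scaling (adjusted p = 0.067), total counts (0.28), TPM (1.00 at either pseudocount) and no block (0.55).

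As separate sequences none of the 3 passed. ALR2 had 0.54 ± 0.13 (adjusted p = 0.11) and was higher with dox in 3 of 3 lines, at 50.0 against 42.0 CPM in clone 1, 53.8 against 37.1 CPM in clone 2 and 80.0 against 45.6 CPM in PB cells. ALRa was at 24.3 CPM with dox against 16.6 without dox in clone 1, 36.0 against 26.7 CPM in clone 2 and 27.2 against 29.8 CPM in PB cells, with no common direction. It had 0.26 ± 0.17 (adjusted p = 0.64), and ALRa_, at 5.42 to 14.5 CPM the least abundant member, had 0.61 ± 0.27 (adjusted p = 0.46). ALRa_ rested on few reads, with 41.4, 59.4 and 64.0 estimated counts with dox against 42.2, 21.7 and 41.3 without dox in clone 1, clone 2 and PB cells. In CPM, 6 of the 7 members were higher with dox in 3 of 3 lines, against 116 of 699 sequences, or 16.6%. ALRa was the exception, and ALRa_ was counted on a fold of 1.007 (counting interval 0.639 to 1.59) in clone 1. As a share of assigned counts ALRa_ was lower with dox in clone 1 (0.000787% against 0.000914%), and 5 of 7 members were higher in 3 of 3 lines, against 66 of 699 sequences, or 9.44%.

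**Figure D4:**
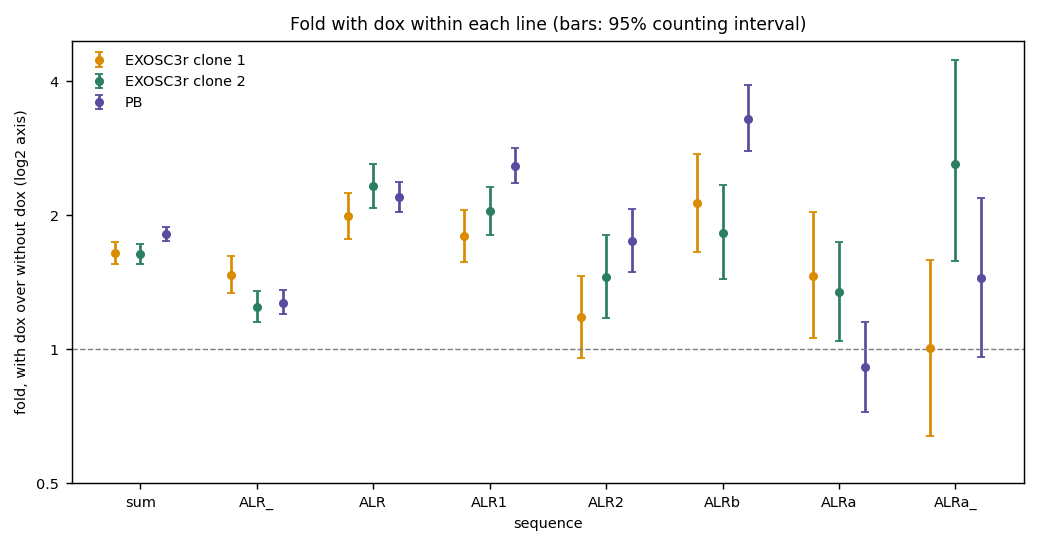
Fold of TMM-scaled CPM with dox over without dox (y axis, log2 scale) within EXOSC3r clone 1, EXOSC3r clone 2 and PB cells for the sum and each alpha satellite sequence; bars are exact 95% intervals for the counting of reads alone and the dashed line marks no change. The folds of the sum run from 1.64 to 1.82. PB cells lie highest for the sum, ALR1, ALR2 and ALRb, and not for ALR or ALR_. For the sum, ALR1 and ALRb the interval of PB cells lies above those of both clones.

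The members did not change in proportion, which can be read within each library without any scaling. ALR_ made up 34.8% of alpha satellite counts with dox (Clopper-Pearson 95% interval 33.1 to 36.5) against 38.95% without dox (36.8 to 41.2) in clone 1, 36.6% (35.1 to 38.1) against 48.1% (46.1 to 50.2) in clone 2, and 31.1% (30.0 to 32.1) against 44.3% (42.7 to 45.9) in PB cells. ALR, ALR1 and ALRb together made up 54.2% with dox against 46.3% without dox in clone 1, 52.3% against 39.8% in clone 2, and 60.5% against 44.9% in PB cells. The share of ALR_ was thus lower, and that of the other 3 higher, with dox in each line.

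The ratio of the summed ALR, ALR1 and ALRb counts to ALR_ was 1.56 with dox against 1.19 without dox in clone 1, 1.43 against 0.826 in clone 2, and 1.95 against 1.01 in PB cells. Its mean log2 change was 0.71 ± 0.28 (SD, n = 3 lines), positive in 3 of 3 lines (exact sign-flip permutation test, two-sided, p = 0.25, the smallest possible). Relative to the sum of ALR2, ALRa and ALRa_ the same 3 members changed by 0.65 ± 0.13, also in 3 of 3 lines. Among themselves ALR1 and ALR showed no common direction, since the ratio of ALR1 to ALR changed by -0.15, -0.19 and 0.23 in clone 1, clone 2 and PB cells. These were 3 of 6 ratios formed after the values were seen, and no ratio had an exact p under 0.25. Of the others, ALR over ALR_ changed by 0.71 ± 0.24 in 3 of 3 lines, while ALRb over ALR and ALR_ over the sum of ALR2, ALRa and ALRa_ had changes of both signs.

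**Figure D5:**
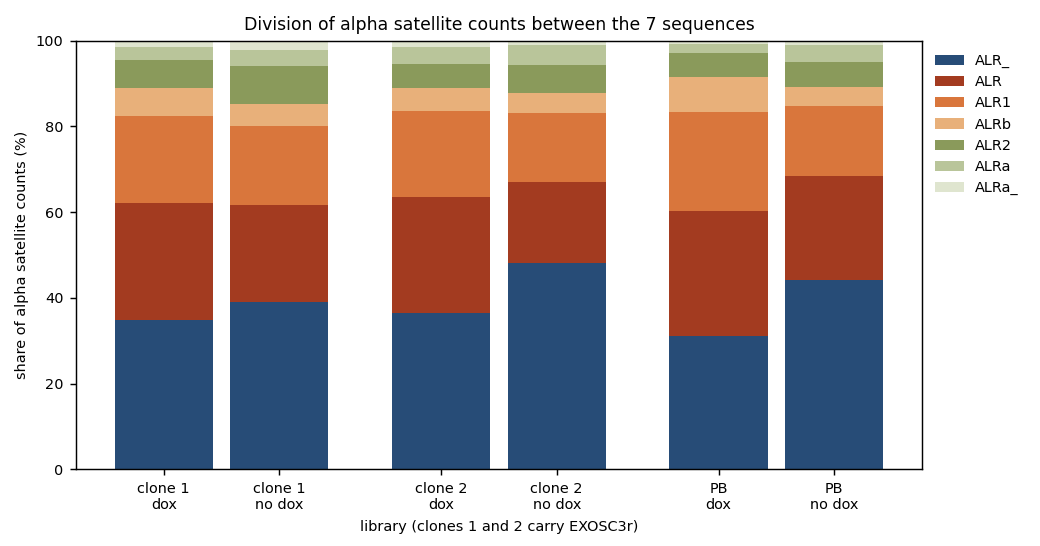
Share of alpha satellite estimated counts (y axis, percent, stacked to 100) held by each of the 7 sequences in each library (x axis), with dox left of without dox for each line. The lowest segment, ALR_, is shorter with dox in each pair (31.1% against 44.3% in PB cells), and the red and orange segments of ALR, ALR1 and ALRb are taller.

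Levels were compared between members as CPM per kilobase of effective length, the number of start positions Salmon counts as usable, which was only 44.5 to 51.6 bases here. Averaged over the 6 libraries, ALR_ was at 6839, ALR at 4718, ALR1 at 3623, ALRb at 1094, ALR2 at 1016, ALRa at 587 and ALRa_ at 221 on this scale. The order of ALR_, ALR and ALR1 was the same in all 6 libraries. ALRb and ALR2 could not be ranked: in clone 1 ALRb stood at 1119 and ALR2 at 991 with dox, and at 521 and 827 without dox. By mean CPM, ALR_ ranked 155 and ALRa_ 526 of the 699 tested sequences.

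Within EXOSC3r cells, where the transgene is present, ALR passed with dox, as 1 of the 7 members and the only one of 699 sequences (0.143%). All 7 had positive changes, against 364 of 699 sequences. An unadjusted p under 0.05 (edgeR) was found for 4 members, against 22 of 699 sequences. ALR averaged 232 ± 29.5 CPM with dox and 108 ± 1.75 CPM without dox (SD, n = 2 clones). The change was 1.11 ± 0.11 on the log2 scale (SE, edgeR quasi-likelihood test, adjusted p = 0.026). ALR1 (0.94 ± 0.12, adjusted p = 0.052) passed with the line as a block (adjusted p = 0.015), and ALRb had 0.98 ± 0.15 (adjusted p = 0.11). DESeq2 called these 3 members (adjusted p = 3.147e-07, 0.00023 and 0.032 for ALR, ALR1 and ALRb). No alternative called more than 9 sequences in this comparison. The sum averaged 855 ± 118 CPM with dox and 520 ± 73.2 CPM without dox, a change of 0.72 ± 0.13 that did not pass (adjusted p = 0.67) and did with the line as a block (adjusted p = 0.0073). The median of the 7 was 0.64, against 0.0052 over all sequences. The call of ALR was lost without the clone 1 library lacking dox (adjusted p = 0.14) and with DESeq2 size factors (0.059), total counts, ACTB and GAPDH scaling or TPM (0.98 to 1.00).

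Within PB cells, 3 of the 7 rose with dox, ALR, ALR1 and ALRb, against 6 of 699 sequences (0.858%). Their log2 changes were 1.14 ± 0.15, 1.37 ± 0.16 and 1.72 ± 0.20 (SE, edgeR, adjusted p = 0.027, 0.018 and 0.018). The sum changed by 0.86 ± 0.18 (adjusted p = 0.44, and 0.0066 with the line as a block), and ALR_ by 0.35 ± 0.28 (adjusted p = 1.00). The median of the 7 was 0.81, against 0.0037 over all sequences. These PB values rest on 1 library per arm, taken to vary like a clone, and ALRb was lost without the clone 1 library with dox (adjusted p = 0.053). All 3 calls were lost with total counts, ACTB and GAPDH scaling or TPM, and that of ALR with DESeq2 size factors (adjusted p = 0.051).

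The responses were then compared between EXOSC3r and PB cells in 1 fit. None of the 7 members, and none of the 699 sequences, passed (0%, edgeR, with 9 at an unadjusted p under 0.05, and 3 called by DESeq2, none of them a member). For the sum, EXOSC3r minus PB was -0.14 ± 0.22 on the log2 scale, with a 95% interval from -0.68 to 0.39 (adjusted p = 1.00). Blocking on the line, which takes the level differences between clones out of the error and leaves 1 residual degree of freedom, gave -0.14 ± 0.06, with an interval from -0.30 to 0.01 (adjusted p = 0.87). The blocked fit called 3 of 699 sequences, none of them a member. Without the block ALR had -0.03 ± 0.18, ALR_ 0.07 ± 0.35 and ALR1 -0.42 ± 0.19 (-0.43 ± 0.12 with it, adjusted p = 0.76). ALRb had the smallest unadjusted p of the members, at -0.74 ± 0.24 (edgeR, adjusted p = 1.00), and its fold was smaller in both clones than in PB cells.

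The level in EXOSC3r cells was then set against that in PB cells, separately with and without dox. In these comparisons between lines, the line as a block takes out the spread between clones and leaves 1 residual degree of freedom. With dox, ALR, ALR1 and ALRb were lower in EXOSC3r cells, with differences of -0.81 ± 0.12, -0.92 ± 0.13 and -1.19 ± 0.16 on the log2 scale (edgeR, adjusted p = 0.046, 0.040 and 0.035), 3 of 7 members against 7 of 699 sequences (1.00%). The sum had -0.71 ± 0.15 (adjusted p = 0.41, and 0.0034 with the line as a block), ALR_ -0.51 ± 0.24 (adjusted p = 0.70, and 0.046 with the block) and ALR2 -0.63 ± 0.17 (adjusted p = 0.61), while ALRa had 0.15 ± 0.36. All 3 calls were lost without the clone 1 library with dox (adjusted p = 0.19 for each) or the clone 1 library lacking dox (0.069, 0.059 and 0.059), and with ACTB and GAPDH scaling or TPM. Alu stood at 52.52% of counts in clone 1 with dox, at 40.13% in clone 2 and at 32.99% in PB cells with dox. With Alu, ACTB and GAPDH left out of the fit, the differences were -0.82 for ALR, -0.92 for ALR1 and -0.72 for the sum. The part of Alu alone in the difference was not tested.

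Without dox none of the 7 members, and none of the 699 sequences, passed between EXOSC3r and PB cells (0%, edgeR, with 16 at an unadjusted p under 0.05, of which 3 were members, and 0 called by DESeq2). The sum had -0.57 ± 0.15 (adjusted p = 0.97, and 0.044 with the line as a block, which takes the spread between clones out of a comparison between lines). ALR had -0.79 ± 0.13 (adjusted p = 0.49), against -0.81 with dox. It was at 106 and 109 CPM in the clones against 186 CPM in PB cells. Both comparisons between lines set 2 clones against a single PB line.

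In the libraries without dox, the clones differed between themselves in ALR_ more than in the other whole-count members. Without dox ALR_ was 1.51-fold higher in clone 2 than in clone 1 (counting interval 1.37 to 1.66), while ALR (1.02, 0.894 to 1.17), ALR1 (1.06, 0.912 to 1.23) and ALRb (1.13, 0.846 to 1.501) lay near equality. With dox the ratios were 1.28 (1.18 to 1.39) for ALR_, 1.197 (1.09 to 1.31) for ALR and 1.21 (1.08 to 1.34) for ALR1, with overlapping intervals. ALRb was at 0.967 (0.790 to 1.18). These values compare 1 library with 1 library and carry no test.

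Other satellites were looked up by name, and 13 of 26 had enough counts to be tested. Over the 3 lines 2 of the 13 had an unadjusted p under 0.05 (edgeR), against 72 of 699 sequences. Neither passed after adjustment, and the median log2 change of the 13 was -0.01. The most abundant were HSAT5 (0.23 ± 0.11, adjusted p = 0.52), SATR2 (-0.04 ± 0.12), CER (0.06 ± 0.17) and MSR1 (0.16 ± 0.14). HSAT5 was at 58.3, 63.6 and 58.0 CPM with dox against 45.1, 54.5 and 54.1 CPM without dox in clone 1, clone 2 and PB cells. ACRO1, a satellite of the acrocentric chromosomes, was the only one of the 13 to pass in any comparison, and did so in PB cells, where it was at 29.3 CPM with dox against 2.67 without dox, and between lines with dox. In the 4 EXOSC3r libraries it was between 1.54 and 2.23 CPM, and the difference of the responses did not pass (-3.41 ± 0.69, edgeR, adjusted p = 0.40). Outside the name list, MER22 and 6kbHsap, also tandem repeats, passed in the same 2 comparisons as ACRO1, and are named after their values were seen. MER22 was at 191, 185 and 431 CPM with dox against 183, 195 and 202 CPM without dox in clone 1, clone 2 and PB cells, a log2 change of 1.09 ± 0.11 in PB cells (edgeR, adjusted p = 0.015). 6kbHsap was at 1557, 1575 and 2864 CPM with dox against 1483, 1496 and 1529 CPM without dox, a change of 0.91 ± 0.09 in PB cells (adjusted p = 0.015). With ACRO1 set aside for its low counts, alpha satellite thus rose in PB cells together with MER22 and 6kbHsap. Whether it responded differently from them was not tested.

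Among 250 sequences outside the family with a mean of at least 100 CPM, the 5 whose log2 CPM over the 6 libraries was most like that of the alpha satellite sum were L1PA12_5 (Pearson r = 0.991), L1PA7_5 (0.916), HUERS-P3B (0.882), LTR70 (0.868) and MER4I (0.823). The first 2 are 5′ ends of primate L1 elements and the others belong to endogenous retroviruses. Their ranges were far narrower than that of the sum. L1PA12_5 was at 256 CPM with dox against 243 without dox in clone 1, 263 against 248 CPM in clone 2, and 277 against 254 CPM in PB cells. The 6 points share libraries and lines, and r is given as a description.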

How the data were processed

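Libraries were stranded and made from rRNA-depleted total RNA, per the labels' protocols. The tools were Salmon 0.13.0, Trimmomatic 0.36 and bcl2fastq 2.17, per the submitters' processing notes; the index, options and build are not given in the sources used here. For each of 1047 sequences the authors deposited an estimated count, a TPM, a length and an effective length, per the file headers. The deposited TPM values are scaled over these sequences alone, of which Alu takes 78.8% to 89.3%. The tables hold 1 value per sequence, with no separation by strand.

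Estimated counts were rounded, and sequences with at least 10 counts in at least 1 library (699) were tested with edgeR 4.0.16 (R 4.3.3), quasi-likelihood test, TMM and Benjamini-Hochberg adjustment at 0.05, with 4 group means, or with the line as a block for dox over the 3 lines (2 residual degrees of freedom each). Adding the block to the 4 groups leaves 1. For the sum, 1 row replaced the 7. Standard errors were taken as the absolute change over the root of F. Code was tested on simulated data. The 2 libraries of a line carry the same line name in the labels, so lines pair the samples; deviations of the clones with and without dox had r = 0.15 over 699 sequences and 0.60 over the 253 above 100 CPM. No library was a copy of another (chi-square per degree of freedom 21.3 to 871 over 15 pairs). P-values measure the spread between clones or lines. In edgeR the spread of each sequence is also moderated by that of all others, so its p-values do not rest on 3 lines alone. The sign-flip permutation test uses the lines only and cannot give a p below 0.25. Named were all members, the 5 most alike sequences, and other satellites that passed or were among the 4 most abundant; names outside this rule were chosen after their values were seen. Members, lists and comparisons were chosen with earlier results of these data known. DESeq2 1.42.0 and limma 3.58.1 on log2(TPM + 1) and log2(TPM + 0.1) were among the alternatives.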

Additional observations from a re-analysis of the deposited data

How the results depend on the processing

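The sum of the 7 kept its direction in all 6 comparisons under every alternative run. Its call over the 3 lines was lost only without a replicate block (0.78), where 0 members passed. Sums of other members were chosen after seeing the data. Without ALR_ the sum passed in EXOSC3r cells (0.91), in PB cells (1.17) and between EXOSC3r and PB cells with dox (-0.82). With the replicate block the sum of the 7 passed in EXOSC3r cells (0.72) and PB cells (0.86). It also passed between lines with dox (-0.72) and without (-0.58), where the block takes out the spread between clones. With DESeq2 it passed in EXOSC3r cells (0.71). Leaving out single clone libraries gave 0.57 to 0.86 in EXOSC3r cells, 0.86 to 0.87 in PB cells, -0.86 to -0.59 between lines with dox, -0.72 to -0.43 without, and -0.29 to -0.01 for the difference of the responses; leaving out a line gave 0.71 to 0.79. Of the members called in EXOSC3r cells (1), 0 were called with DESeq2 size factors, total counts, TPM and the ACTB and GAPDH scaling, 2 with a filter in all 6 libraries, the length offset, the block or without Alu, ACTB and GAPDH, 3 with DESeq2, and 0 to 2 without single libraries. In PB cells (3), 0 were called in TPM, with ACTB and GAPDH scaling or with total counts. Between lines with dox (3), 0 were called with ACTB and GAPDH scaling and TPM, 1 with total counts or DESeq2 size factors, and 0 to 3 without single libraries; without dox (0), 0 to 1. Over the 3 lines (4), 2 to 5 were called without single lines. Calls over all 699 sequences ranged from 0 to 9 in EXOSC3r cells (1), 1 to 7 in PB cells (6), 0 to 7 for the difference (0), 0 to 22 and 0 to 2 between lines with and without dox (7 and 0) and 0 to 28 over the 3 lines (12). Between lines with dox, the median of the 699 shifted by -0.40 with total counts, -0.64 with the ACTB and GAPDH scaling and -0.76 in log2(TPM + 1). The causes were not tested.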
